A study of Saccharomyces cerevisiae with 93 samples.

Results

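Compounds 3 and 4 of this series are a pair of bromofluorophenyl dimethylquinolinones, and their effect on the transcripts of yeast cells that make human alpha-synuclein is described here. Both carry a phenyl ring with 1 bromine and 1 fluorine on the same dihydroquinolinone. Per the names in the labels, the bromine sits meta to the bond that joins the rings in both, while the fluorine is ortho in compound 3 and para in compound 4. Of 6 arrays titled with compound 3 or 4 over no compound in 2-copy cells, 3 were used: array 1 of compound 3 and arrays 1 and 2 of compound 4. Arrays 2 and 3 of compound 3 and array 3 of compound 4 were left out because the large ratios on them fell on other probes. The whole series holds 93 arrays.

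The study, titled as a rescue from toxic alpha-synuclein in yeast as a model of Parkinson's disease, set the RNA of 1 culture, dyed with Cy5, against that of another, dyed with Cy3, on each array. Both channels of the 3 arrays held 2-copy cells, which carry alpha-synuclein fused to green fluorescent protein at 2 places in the genome under a galactose promoter, and Cy5 held the cells with compound. The label of 1 array of the series gives the strain as W303, mating type a, with the drug pump regulators PDR1 and PDR3 deleted, so that the cells without compound and the cells with it share those deletions. All cells were harvested 4 h after induction with galactose from cultures started at a low density, and neither the dose nor the solvent of a compound is given in the sources used here. Further groups used are the same compounds in vector cells without alpha-synuclein (n = 3 arrays each), 2-copy over vector cells with compound 3 or 4 in both (n = 1 array each), 2-copy over vector cells without compound (n = 6), and compounds 2, 5 and 6 in 2-copy cells (n = 3, 3 and 2). The labels state 3 pairs of biological replicates per comparison, but do not say whether cultures were shared between comparisons. Alpha-synuclein and its tag had no probe, and since both channels hold 1 strain, strain markers cannot check its identity by a ratio.

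Alpha-synuclein at high levels is known to block vesicle traffic from the endoplasmic reticulum (ER) to the Golgi in yeast. Proteins that cannot fold in the ER set off the unfolded protein response, in which the sensor IRE1 splices the mRNA of the activator HAC1 and genes of chaperones, disulfide formation and ER-associated degradation are transcribed. Iron uptake genes are under the activators AFT1 and AFT2, and phosphate uptake genes under PHO4.

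Every value below is a log2 ratio of cells with compound over cells without it, unless another ratio is named, so that 1 is a 2-fold rise and -1 a 2-fold fall. Compound 4 has a mean of 2 arrays. Its error was pooled over the spread within all groups, so that the difference between its own 2 arrays enters little. Compound 3 has 1 array, whose error was taken from the spread within the other groups (limma, SE after ±), so that its p-values have no replicate of their own.

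The 3 arrays were unequal among themselves in a way that followed their number and not the compound. Across the 6377 probes, the difference between array 1 of compound 3 and array 1 of compound 4 had an SD of 0.177, against 0.415 between the 2 arrays of compound 4 and 0.420 between array 1 of compound 3 and array 2 of compound 4. Of all probes, 14 differed by over 1 between the arrays numbered 1, and 161 between the 2 arrays of compound 4. Array 1 of compound 6, a related compound, shared large ratios with both: 73 probes were past 1 in size with 1 sign on array 1 of compounds 3, 4 and 6, and of these 0 were past 1 with that sign on array 2 of compound 4 and 63 were within 0.5 of 0. The protein kinase gene YPK2 (YMR104C) was one of them, at 2.48 with compound 3, 2.57 and 0.29 on the compound 4 arrays, and 2.39 and -0.15 on arrays 1 and 2 of compound 6. It was also high on array 1 of compounds 1, 2 and 5, at 1.15, 1.64 and 1.76, and between -0.084 and 0.56 on their arrays 2 and 3. The 2 compound 6 arrays correlated with each other at -0.41 across probes; the labels give the same dyes for both, so the direction of array 2 of compound 6 is not settled, and it was kept as labelled. Values of compound 6 array 1 are therefore given beside the results, and their part in them was not tested.

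**Figure D1:**
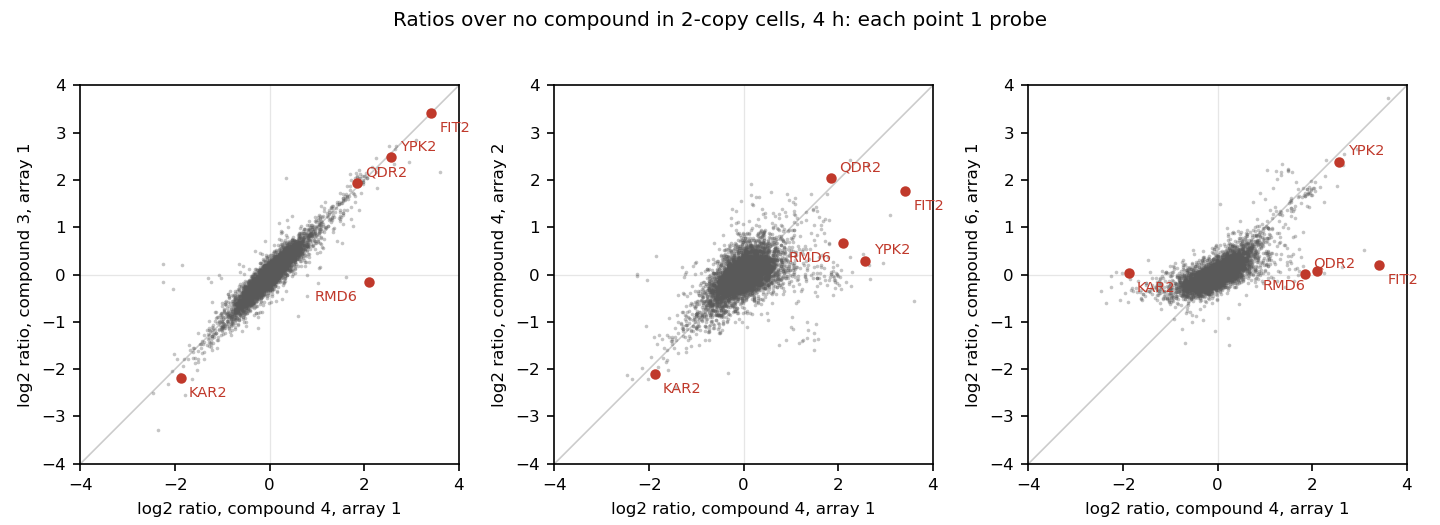
Log2 ratios over no compound in 2-copy cells for every probe, with compound 4 array 1 on each horizontal axis and compound 3 array 1, compound 4 array 2 or compound 6 array 1 on the vertical axes; the grey diagonal marks equal ratios and 5 genes are named. Compound 3 array 1 lies close to the diagonal, FIT2, QDR2 and KAR2 are far from 0 on all compound 3 and 4 arrays, and YPK2 is high on the arrays numbered 1 of all 3 compounds.

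With compound 3, 194 probes were higher and 238 lower at an adjusted p under 0.05 in limma, which is 6.77% of the 6377 tested, 3.04% higher and 3.73% lower. With compound 4, 312 were higher and 526 lower, or 13.1%, 4.89% and 8.25% in the same order. Of all probes, 24 were higher than 1 and 58 lower than -1 on each of the 3 arrays. Array 1 of compound 6 was past 0.5 in size for 11 of these 82. These 82 had to be past 1 on compound 4 array 2, so that ratios large only on the arrays numbered 1 could not enter. Over all calls, compound 6 array 1 was also set against the called value. It had the same sign and at least 0.5 times that value for 31.7% with compound 3 and 26.1% with compound 4. When each array was scaled to the same spread, 46 probes were called higher and 95 lower with compound 3. When the same-numbered compound 6 array was subtracted, 5 calls with compound 3 (0.0784%) and 64 with compound 4 (1.0%) were made, the latter 74 with the sign of compound 6 array 2 turned. The values of leading genes stayed large after this subtraction, which sets 1 array against 1 for compound 3. FIT2 was at 3.22 and 2.27 with compounds 3 and 4, ULI1 at -2.68 and -2.04, KAR2 at -2.23 and -2.01 and CSS1 at 2.17 and 2.21. On arrays 1 and 2 of compound 6, FIT2 was at 0.20 and 0.43, ULI1 at -0.60 and 0.093, KAR2 at 0.035 and -0.019 and CSS1 at 0.17 and 0.35. The subtraction could therefore move most of these values little. After it FIT2, ULI1 and KAR2 were not called with either compound, nor was CSS1 with compound 3. From array 1 of compound 4 alone 413 calls were made, and from its array 2 alone 195. All 80 genes named here that were called with compound 4 had the same sign on both arrays. The naming rule asked this of the leading genes, and each call used the mean of both arrays, so that this is no check. Over all 838 calls, 832 had the sign of the call on array 2. Fewer of the 80 were called from array 1 alone, and fewer still from array 2 alone.

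The genes of ER protein folding fell with both compounds. The ER list held 24 measured genes, of which 11 fell with compound 3 and 15 with compound 4, and 0 rose with either. Its median was -0.78 on compound 3 array 1, -0.70 and -0.95 on compound 4 arrays 1 and 2, and -0.11 and -0.062 on the compound 6 arrays, and the medians of all probes on the 3 arrays were between -0.0058 and -0.0001. ULI1, which the unfolded protein response turns on, leads the list. ULI1 (YFR026C) stood at -3.29 with compound 3 and at -2.37 and -2.21 with compound 4 and was the lowest of the named genes with compound 3. Its fitted values were -3.29 ± 0.61 (adjusted p = 0.000327) and -2.29 ± 0.43 (adjusted p = 0.000115). For the ER Hsp70 KAR2 (YJL034W), the 3 arrays gave -2.19, -1.88 and -2.11, so that compound 3 lay just outside the range of compound 4, and the adjusted p-values were 0.016 and 0.000613. Compound 6 left it at 0.035 and -0.019. The thiol oxidase ERO1 (YML130C), which feeds disulfide formation, gave -2.21, -1.65 and -1.86 (adjusted p = 0.00504 and 0.000602). The nucleotide exchange partner of KAR2, LHS1 (YKL073W), gave -1.77, -1.63 and -1.28 (adjusted p = 9.42e-05 and 1.13e-06), with -0.51 on compound 6 array 1.

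Some genes of ER-associated degradation, transport and ergosterol synthesis fell as well. Of all probes, 3.73% fell with compound 3 and 8.25% with compound 4. The counts for ER-associated degradation, and for ergosterol with compound 3, were near these shares and show no fall of those lists. Of 15 genes of ER-associated degradation, 1 fell with each compound, the retrotranslocation factor DER1 (YBR201W), at -1.28, -1.02 and -1.01 (adjusted p = 0.0101 and 0.00145). Of 45 genes of ER to Golgi transport, 4 fell and 1 rose with compound 3, and 13 fell and 2 rose with compound 4. The cargo receptor ERV29 (YGR284C) reached -1.02 with compound 3 (adjusted p = 0.0917) and -0.73 and -1.38 with compound 4 (adjusted p = 0.00468). The coatomer subunit RET3 (YPL010W) gave -0.89, -0.57 and -0.75, and the SNARE regulator SLY1 (YDR189W) gave -0.64, -0.67 and -0.75; both fell with both compounds. YOS1 (YER074W-A), a transport gene that rose with both, was at 1.45, 1.33 and 0.15, and at 1.32 on compound 6 array 1. Of the 26 ergosterol genes 1 fell with compound 3 and 5 with compound 4, and the squalene epoxidase ERG1 (YGR175C) was at -1.21, -0.85 and -0.88.

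Cytosolic heat shock genes had medians below 0, and a few of them fell. Of 24 genes, 2 fell with compound 3 and 5 with compound 4, with medians of -0.59, -0.31 and -0.46 on the 3 arrays. The small heat shock protein gene HSP26 (YBR072W) stood at -2.56, -1.80 and -1.27, in fitted terms -2.56 ± 0.68 with compound 3 (adjusted p = 0.0135) and -1.54 ± 0.48 with compound 4 (adjusted p = 0.0238). The Hsp110 gene SSE1 (YPL106C) fell with both, at -0.76, -0.74 and -1.20. The sequestrase BTN2 (YGR142W) (compound 3: -1.40, adjusted p = 0.0763) and the Hsp90 cochaperone CPR6 (YLR216C) (compound 3: -0.97, adjusted p = 0.054) passed the test with compound 4, where BTN2 was at -1.25 and -0.94 and CPR6 at -0.64 and -1.12. Of 33 proteasome genes limma called 0 with either compound, and 7 with compound 3 and 3 with compound 4 were lower at an unadjusted p under 0.05.

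Phosphate uptake genes were among the lowest on all 3 arrays. Of 16 genes of the list, 5 fell with compound 3 and 9 with compound 4, and 1 rose with each; the medians were -0.66, -0.64 and -0.72. SPL2 (YHR136C), an inhibitor of low affinity phosphate uptake, stood at -2.50, -2.46 and -2.13 (adjusted p = 0.0198 and 0.000784). The sodium phosphate cotransporter PHO89 (YBR296C) gave -2.32, -2.16 and -1.98 (adjusted p = 0.0219 and 0.00135). The high affinity transporter PHO84 (YML123C) gave -1.67, -2.02 and -2.22, past the threshold with compound 4 (adjusted p = 0.00745) and not with compound 3 (adjusted p = 0.22). On both compound 6 arrays these 3 genes were between -0.35 and 0.064. GIT1 (YCR098C), the glycerophosphoinositol permease, and VTC1 (YER072W), a subunit of the polyphosphate polymerase complex, followed at -1.60, -1.68 and -1.55, and at -0.80, -0.96 and -0.90; both fell with both compounds. The member that rose was the acid phosphatase PHO5 (YBR093C) (1.10, 1.06 and 0.95), named after its values were seen, whose sequence is close to that of PHO3, so that hybridisation of one to the other's probe cannot be told apart.

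Some genes of vitamin and purine synthesis fell too. In the thiamine and pyridoxine list (22 genes), 6 fell with compound 3 and 9 with compound 4, and 1 rose with each, the thiamine-repressible acid phosphatase PHO3 (YBR092C), also named after its values were seen. The thiamine synthesis genes THI5 (YFL058W), THI11 (YJR156C) and THI13 (YDL244W), near-identical copies that their probes may not tell apart, lay between -1.87 and -1.31 over the 3 arrays and fell with both compounds. The pyridoxine gene SNZ1 (YMR096W) gave -1.78, -1.95 and -1.74 (adjusted p = 0.0723 with compound 3 and 0.00251 with compound 4). Of 19 purine and one-carbon genes, 3 fell with compound 3 and 8 with compound 4, with medians of -0.52, -0.52 and -0.62. The serine hydroxymethyltransferase SHM2 (YLR058C) stood at -1.79, -1.81 and -1.95 (adjusted p = 0.0148 and 8.13e-05), and the adenylosuccinate lyase ADE13 (YLR359W) at -1.28, -1.29 and -1.15. The folate enzyme MTD1 (YKR080W) (-1.47, -1.48 and -1.56) passed with compound 4, and the purine synthesis gene ADE2 (YOR128C), whose ade2-1 allele the strain carries, gave -1.32, -1.19 and -0.89 and fell with both. Of 43 amino acid synthesis genes, 9 fell and 1 rose with compound 4. With compound 3 limma called 0, with 3 higher and 5 lower at an unadjusted p under 0.05, and no member passed the test of the difference between the compounds. The lysine genes LYS20 (YDL182W) (-0.53, -0.74 and -1.16) and LYS1 (YIR034C) (-0.57, -0.94 and -1.08) and the histidine gene HIS4 (YCL030C) (-0.85, -0.76 and -1.21) were below 0 on all 3 arrays and fell with compound 4.

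Further genes named by rule fell on all 3 arrays. Among them were the adenosine monophosphoramidase gene HNT1 (YDL125C) (-2.04, -2.06 and -1.10), YET2 (YMR040W), an ER membrane protein gene (-2.03, -1.53 and -1.40), and CPP3 (YDR034W-B) (-2.11, -1.89 and -1.32). All of them passed with both compounds. LCL2 (YLR104W), a gene tied to ER-associated degradation, had the smallest p among the falls with compound 3 that are named here (-1.52 ± 0.21, adjusted p = 2.12e-06). With compound 4 it was at -1.28 and -1.20 (adjusted p = 2.33e-08). The zinc regulator ZAP1 (YJL056C) was the called member among 9 zinc genes, at -1.26, -0.99 and -0.81. The sulfate transporter SUL1 (YBR294W) gave -1.84, -1.53 and -1.40, and the ferrochelatase gene HEM15 (YOR176W), which makes heme, -1.77, -1.59 and -0.92; both fell with both compounds.

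Iron uptake genes rose. Of 27 measured genes of the iron regulon, 9 rose with compound 3 and 6 with compound 4, and 0 fell with either. The median of the list was 0.69 on compound 3 array 1 and 0.65 on compound 4 array 1, but 0.20 on compound 4 array 2, close to the 0.17 of compound 6 array 1. FIT2 (YOR382W), a mannoprotein that holds iron siderophores in the cell wall, had 3.42, 3.42 and 1.76, the highest mean of all named genes on the 3 arrays. The fit gave 3.42 ± 0.85 with compound 3 (adjusted p = 0.00814) and 2.59 ± 0.60 with compound 4 (adjusted p = 0.0017). Its relative FIT3 (YOR383C) had 2.85, 3.10 and 1.26 (adjusted p = 0.000171 and 1.14e-05), and the siderophore transporter ARN1 (YHL040C) 1.97, 1.80 and 0.64 (adjusted p = 0.00504 and 0.00803). For all 3 genes array 2 of compound 4 was the lowest, and from that array alone none of them was called. On compound 6 array 1, FIT2 was at 0.20, FIT3 at 0.51 and ARN1 at 0.19. The vacuolar metal transporter COT1 (YOR316C) gave 1.27, 1.05 and 0.68 and rose with both. CCC2 (YDR270W), the copper pump that loads the iron oxidase, gave 1.87, 1.63 and 0.20, with 1.19 on compound 6 array 1, and passed with compound 3 (adjusted p = 0.0291) but not with compound 4 (adjusted p = 0.121). Its difference between the compounds did not pass (adjusted p = 1). The low affinity iron transporter FET4 (YMR319C) gave 1.73, 1.48 and 1.05 (adjusted p = 0.00434 and 0.00124).

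Genes that act when daughter cells separate rose, and in this group the 3 arrays were alike. Of 10 genes, 6 rose with compound 3 and 9 with compound 4, with medians of 1.13, 1.10 and 1.08; compound 6 array 1 had 0.29 and array 2 -0.078. The septation gene SUN4 (YNL066W) stood at 1.66, 1.81 and 1.16 (adjusted p = 0.000631 and 3.80e-06), with 0.89 on compound 6 array 1. The glucanase genes SCW11 (YGL028C) (1.65, 1.63 and 1.05) and DSE4 (YNR067C) (1.49, 1.47 and 1.36) and the cell wall gene EGT2 (YNL327W) (1.46, 1.32 and 1.16) rose with both compounds; SCW11 was at 0.82 on compound 6 array 1. Cell wall integrity genes were called in both directions: of 21, 1 fell and 1 rose with compound 3, and 6 fell and 1 rose with compound 4. The glucan synthase gene GSC2 (YGR032W) fell, at -1.94, -1.82 and -1.47 (adjusted p = 0.00026 and 3.60e-06), and the wall mannoprotein gene CWP1 (YKL096W) rose, at 1.67, 1.58 and 1.22. NCW2 (YLR194C), another wall protein gene, was at -1.55 (adjusted p = 0.135) with compound 3 and at -1.60 and -2.01 (adjusted p = 0.00389) with compound 4.

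The mating list gave both directions. Of 19 pheromone response genes, 2 rose and 3 fell with each compound. PRM1 (YNL279W), which works in fusion of mating cells, was at 2.12, 1.70 and 0.87 (adjusted p = 0.0015 and 0.00292), and FAR1 (YJL157C), the cell cycle inhibitor of the pheromone response, at 1.03, 1.12 and 1.06 (adjusted p = 0.0173 and 9.20e-05). Compound 6 array 1 had -0.018 for PRM1 and -0.042 for FAR1. The fusion genes FUS1 (YCL027W) (-0.82, -0.65 and -0.65) and FUS2 (YMR232W) (-0.77, -0.74 and -0.38) fell with both. With the array number as a block, the call of FUS1 with compound 3 missed the threshold (adjusted p = 0.0559).

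Other genes rose by similar amounts on all 3 arrays. QDR2 (YIL121W), a plasma membrane multidrug transporter, had the smallest p of the genes with a symbol named here with each compound: 1.94 with compound 3 (± 0.25, adjusted p = 9.56e-07), and 1.84 and 2.05 with compound 4 (± 0.18, adjusted p = 1.18e-11). Compound 6 left it at 0.016 and -0.12, and after subtraction of the same-numbered compound 6 array it was at 1.92 (adjusted p = 0.00382) and 1.9974 (adjusted p = 1.39e-06). It was the member that rose among 14 drug efflux genes. CSS1 (YIL169C), a gene of a secreted protein, and HPF1 (YOL155C), a gene of a related wall mannoprotein, rose with both compounds, CSS1 at 2.33, 2.63 and 2.31 and HPF1 at 2.17, 2.26 and 2.42. Their sequences are related, so that hybridisation of one to the other's probe cannot be told apart. REE1 (YJL217W), named for a role in regulating enolase, gave 1.52, 1.52 and 1.43 (adjusted p = 0.000171 and 8.30e-08). The membrane protein gene MRH1 (YDR033W) gave 1.43, 1.73 and 1.18 and rose with both. Its relative YRO2 (YBR054W) (1.76 and 1.70) and the wall glycoprotein gene YGP1 (YNL160W) (1.55 and 1.34) rose with compound 4, and with compound 3 were at 1.03 (adjusted p = 0.452) and 1.06 (adjusted p = 0.32). APQ12 (YIL040W), a nuclear envelope gene, fell with both, at -1.64, -1.63 and -1.59.

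**Figure D2:**
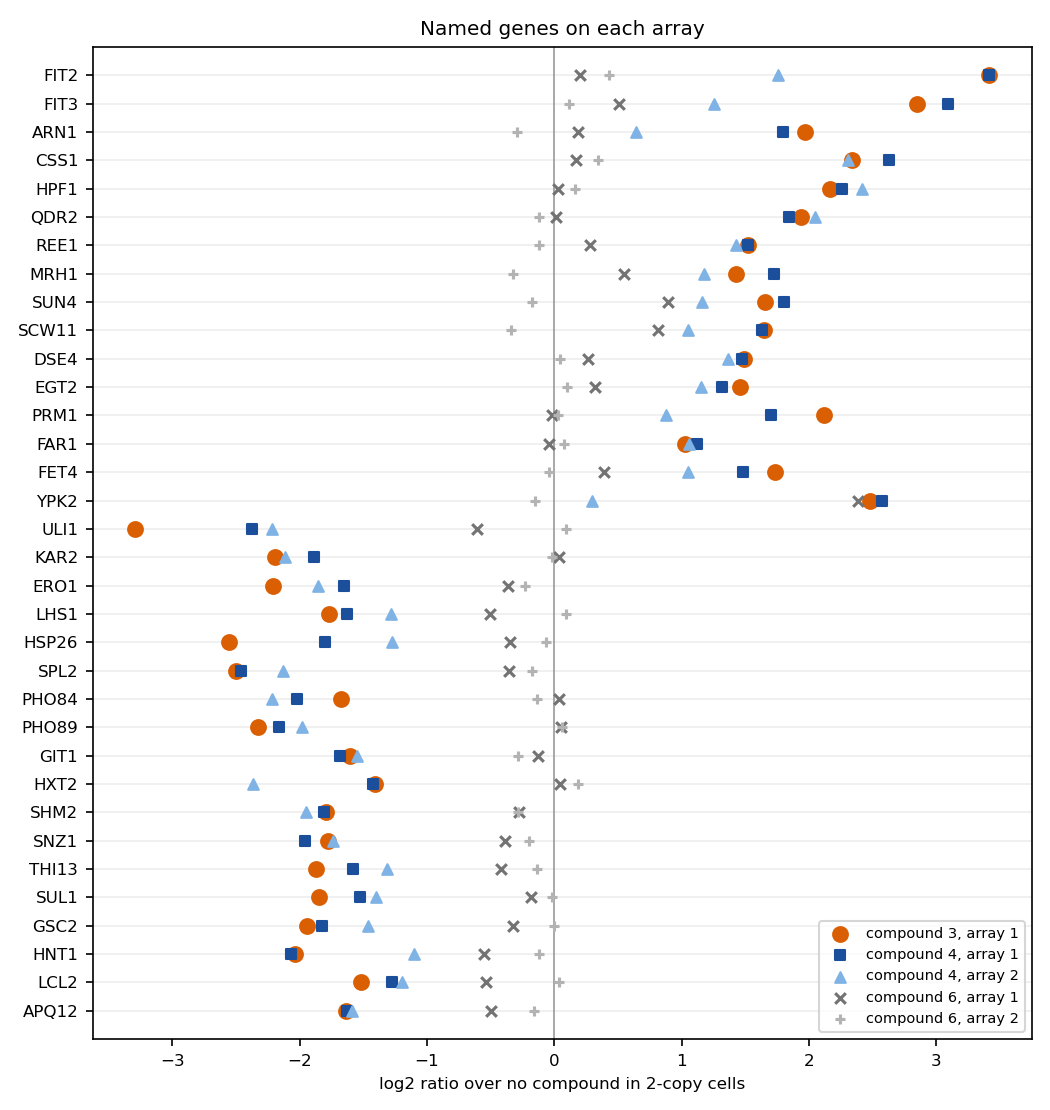
Log2 ratios over no compound in 2-copy cells for named genes, 1 symbol per array of compounds 3, 4 and 6. For CSS1, HPF1, QDR2, REE1, KAR2 and APQ12 the 3 arrays of compounds 3 and 4 lie together and away from compound 6, for FIT2 and FIT3 compound 4 array 2 lies below the others, and for YPK2 it lies apart from the arrays numbered 1.

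Hexose transporter genes moved in both directions, 1 higher and 2 lower of 14 with compound 3, and 3 and 3 with compound 4. HXT2 (YMR011W), a high affinity glucose transporter gene, stood at -1.41, -1.43 and -2.37, lowest on array 2 of compound 4 (adjusted p = 0.044 and 2.14e-05). HXT5 (YHR096C), a moderate affinity transporter gene, was at -1.31, -1.09 and -0.83, and passed with compound 4 (adjusted p = 0.0372, or 0.054 with the array number as a block). The related transporter genes HXT1 (YHR094C) (1.01, 1.17 and 0.53) and HXT4 (YHR092C) (1.21, 1.52 and 0.63) were above 0 on all 3 arrays and passed with compound 4. The member that rose with compound 3 was the glucose sensor RGT2 (YDL138W) (0.64, 0.87 and 0.47), named after its values were seen.

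Respiratory chain and tricarboxylic acid cycle genes had medians a little above 0, with most of their calls from compound 4. Mitochondrial ribosome genes had a median near 0 on compound 3 array 1. Of all probes, 4.89% rose with compound 4. Of 37 genes of the respiratory chain and ATP synthase, 12 rose with compound 4 and 0 with compound 3, for which 7 were higher and 2 lower at an unadjusted p under 0.05. The medians were 0.18, 0.18 and 0.42, with -0.0084 on compound 6 array 1. The NADH dehydrogenase NDI1 (YML120C) had 0.60, 0.75 and 1.19, and the oxidase subunit COX4 (YGL187C) 0.54, 0.70 and 0.98. The subunits of ubiquinol cytochrome c reductase COR1 (YBL045C) (0.73, 0.81 and 0.52) and RIP1 (YEL024W) (0.57, 0.70 and 0.67) were also high on compound 6 array 1, at 0.60 and 0.53. These 4 genes rose with compound 4. For 5 of the 12 calls, compound 6 array 1 had the same sign and at least 0.5 times the value. Of 15 genes of the tricarboxylic acid cycle, 2 rose with compound 3 and 6 with compound 4. The malate dehydrogenase MDH1 (YKL085W) rose with both (0.81, 0.83 and 0.71). The isocitrate dehydrogenase subunits IDH1 (YNL037C) (0.41, 0.74 and 0.82) and IDH2 (YOR136W) (0.80, 0.78 and 0.78) and KGD1 (YIL125W) of the ketoglutarate dehydrogenase (0.73, 0.79 and 1.05) passed with compound 4. With the array number as a block IDH2 also passed with compound 3 (adjusted p = 0.0428). Of 67 mitochondrial ribosome genes, 1 rose with compound 4 and 0 with compound 3, for which 1 was higher at an unadjusted p under 0.05. The list's median was 0.0012 and 0.082 on the arrays numbered 1 and 0.41 on array 2 of compound 4.

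Some lists set the arrays of compound 4 apart from each other. General stress, trehalose and glycogen genes (26) had medians of -0.21 on compound 3 array 1, -0.0006 on compound 4 array 1 and 0.77 on compound 4 array 2. With compound 4, 3 of them rose and 1 fell. Cytosolic ribosomal protein genes had medians of 0.13, 0.089 and 0.27 over 137 genes, of which 5 rose with compound 4. Of all probes, 4.89% rose and 8.25% fell with compound 4. The count of ribosomal protein genes that rose was below that share and shows no rise of the list. The galactose genes that share their promoter type with alpha-synuclein gave no call: GAL1 (YBR020W) had -0.089, -0.018 and 0.28 (adjusted p = 0.877 and 0.668), GAL7 (YBR018C) had -0.20, -0.12 and 0.076, and GAL10 (YBR019C) had -0.22, -0.037 and 0.14. The drug pump genes PDR5 (YOR153W) (-0.51, -0.49 and -0.18), SNQ2 (YDR011W) (0.21, 0.18 and 0.059) and YOR1 (YGR281W) (-0.22, -0.21 and 0.29), targets of the deleted PDR1 and PDR3, were not called with either compound.

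**Figure D3:**
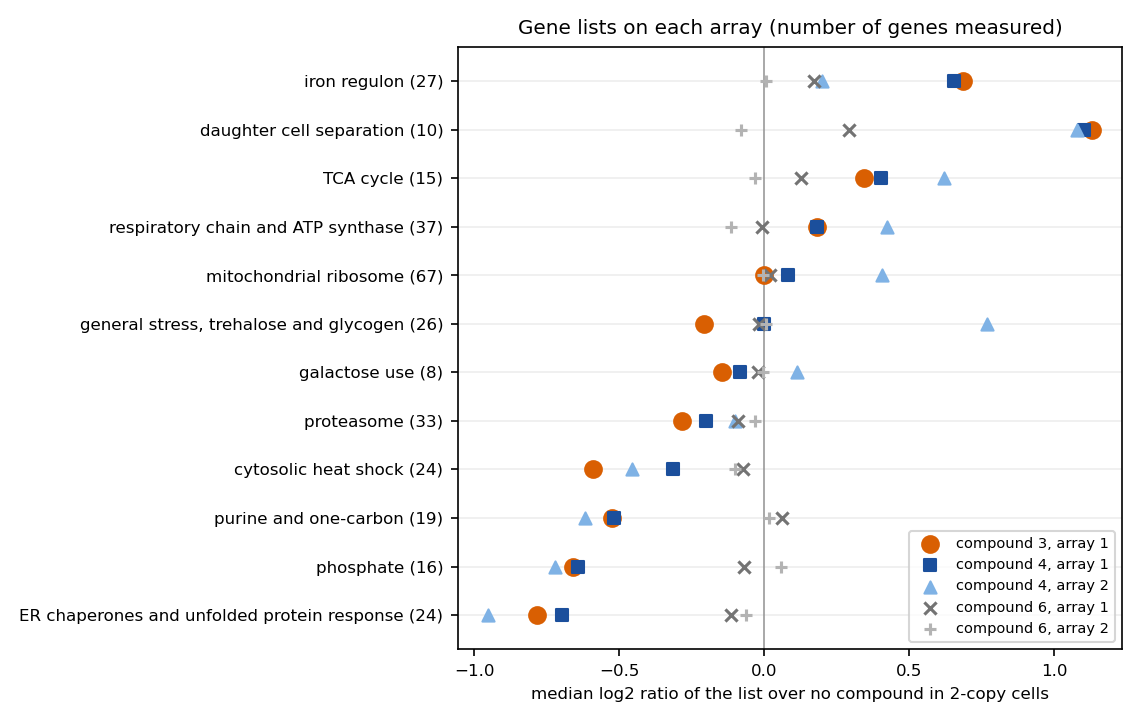
Median log2 ratio of 12 gene lists over no compound in 2-copy cells on each array of compounds 3, 4 and 6, with the number of genes measured in brackets. Daughter cell separation is highest and the ER list lowest on the compound 3 and 4 arrays, and compound 4 array 2 differs most from array 1 for general stress and iron genes.

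The design holds a second route to the same quantity, through 3 other sides of a loop: 2-copy over vector cells with compound (1 array), plus the compound in vector cells (3 arrays), minus 2-copy over vector cells without it (6 arrays). None of the 3 arrays above enters its estimate. Genes named by size with compound 3 had to have the same sign by this route, so that their sign here is no check. By this route 21 probes were higher (0.329%) and 76 lower (1.19%) with compound 3, 1.52% in all, and 28 higher (0.439%) and 44 lower (0.69%) with compound 4, 1.13% in all. Of the 432 direct calls with compound 3, 364 had the same sign by the loop, as had 773 of the 838 with compound 4. QDR2 was at 2.19 (adjusted p = 9.17e-06) and 1.95 (adjusted p = 0.000362), close to its direct values. FIT2 was at 4.94 and 5.25 (adjusted p = 0.00631 and 0.00505), above its direct values, and CSS1 at 2.35 and 2.79. KAR2 was at -1.98 and -1.38 (adjusted p = 0.213 and 0.472), and HSP26 at -3.47 and -2.90. SHM2 was at 0.051 and -0.0048 (adjusted p = 0.989 and 0.999), ADE13 at 0.40 and 0.29 and YPK2 at -0.23 and -0.24, so that the falls of the purine genes SHM2 and ADE13 and the rise of YPK2 were not seen by this route. The daughter separation gene SUN4 was at 0.46 and 0.44 (adjusted p = 0.734 and 0.727) and SCW11 at 0.47 and 0.44, above 0 and not called. SNZ1 was at 0.23 and -0.36, so that its fall was not seen by the loop with compound 3 and was small with compound 4. DIC1 was at 0.18 and -0.19. The purine list's median was 0.17 and 0.067 by the loop, against -0.68 and -0.58 for the ER list and 0.73 and 0.69 for the iron list. Respiratory chain genes had a median of -0.088 and 0.12 by this route, mitochondrial ribosome genes -0.11 and 0.048. Tricarboxylic acid cycle genes had 0.32 and 0.41. All-probe medians by this route were -0.03 and -0.023.

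The comparison of compounds 3 and 4 sets apart the ortho and the para fluorine. It was 1 of 5 pairs compared, with p-values adjusted over all probes of the 5 together, and the doses behind the arrays are unknown. Compound 3 was higher than compound 4 for 2 probes and lower for 2 (0.0627% called), and 66 probes had an unadjusted p under 0.05. RMD6 (YEL072W), a gene required for meiotic nuclear division, was at -0.16 with compound 3 and at 2.09 and 0.66 with compound 4, a difference of -1.54 (95% interval -2.11 to -0.97, adjusted p = 0.00405). The 2 compound 4 arrays were far apart for it, and by the loop it was at 0.061 and 0.11 with compounds 3 and 4. ALG13 (YGL047W), a subunit of the enzyme that adds the second sugar of N-linked glycans, was at -1.14 with compound 3 and at -0.25 and 0.20 with compound 4 (difference -1.11, interval -1.59 to -0.63, adjusted p = 0.0226). By the loop ALG13 was at -0.20 and -0.14. The other called probes had a locus tag and no symbol and are named after their values were seen: YDR029W was at 2.05 with compound 3 and 0.34 and 0.35 with compound 4, and YBL044W at 0.22, -2.26 and 0.01. For YDR029W (difference 1.71, interval 1.24 to 2.18, adjusted p = 1.13e-05) the compound 3 array stood apart from both compound 4 arrays, and by the loop it was at 0.56 with compound 3. For YBL044W (1.35, 0.71 to 1.99, adjusted p = 0.049) array 1 of compound 4 stood apart from the other 2, and without it the difference was 0.22. Without array 1 of compound 4 the difference of RMD6 was -0.82 (adjusted p = 0.425), and without its array 2 that of ALG13 was -0.88 (adjusted p = 0.283), so that the call of YDR029W alone was made with either array of compound 4 left out.

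Since few genes passed, the largest differences with compound 3 outside the range of the compound 4 arrays are given as values without a call. Higher with compound 3 were the wall protein gene TOS6 (YNL300W) (by 1.27, 95% interval 0.21 to 2.33), the ribosome biogenesis gene EMG1 (YLR186W) (1.03, -0.024 to 2.09), the mitochondrial oxidoreductase gene ARH1 (YDR376W) (0.98, -0.58 to 2.54), CCC2 (0.96, -0.42 to 2.33) and the exocyst gene EXO84 (YBR102C) (0.93, 0.32 to 1.54). EMG1, ARH1 and CCC2 were at 1.18, 1.62 and 1.63 on compound 4 array 1, at -0.19, -0.18 and 0.20 on its array 2, and at 1.28, 1.39 and 1.19 on compound 6 array 1. Lower with compound 3, beside RMD6 and ALG13, were the aldehyde dehydrogenase gene ALD3 (YMR169C) (-1.39, -2.90 to 0.13), HSP26 (-1.02, -2.69 to 0.65) and ULI1 (-0.9962, -2.48 to 0.49). For the leading genes of both compounds the interval of the difference included 0. It ran from -0.63 to 0.62 for QDR2, from -0.61 to 0.96 for SUN4, from -1.67 to 1.28 for KAR2 and from -1.27 to 2.92 for FIT2, so that a 2-fold difference was outside the interval of QDR2 and SUN4 and inside that of KAR2 and FIT2. Over all probes the interval lay within 1 of 0 for 5164 (81.0%), and its median width to either side was 0.56.

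**Figure D4:**
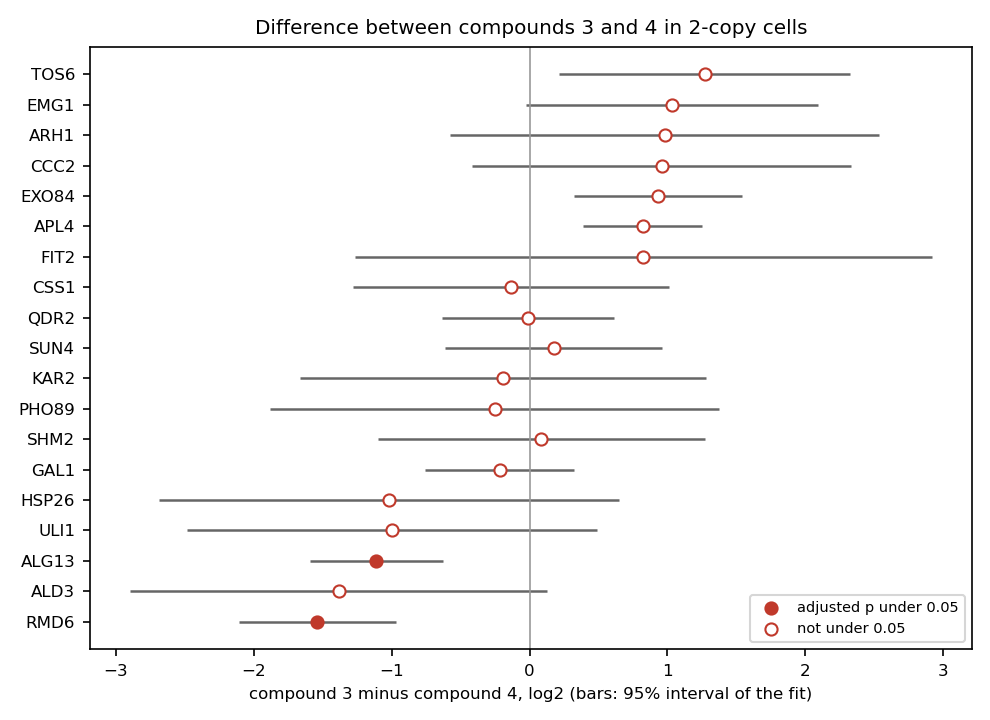
Compound 3 minus compound 4 in 2-copy cells for 19 genes, as log2 difference with its 95% interval from the fit; filled points passed an adjusted p of 0.05. RMD6 and ALG13 passed, and the intervals of FIT2, KAR2, PHO89 and HSP26 are wide enough to hold a 2-fold difference.

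Compound 5 has the same dimethylquinolinone with an ethyl group named in place of the halogens. Its 3 arrays correlated little across probes, at 0.078 for arrays 1 and 2, 0.16 for 1 and 3 and 0.028 for 2 and 3. For some genes they lay far apart, as for ULI1 at -2.93, -0.11 and -0.95. Compounds 3 and 4 are compared here with the mean of these arrays. Compound 3 was higher for 8 probes (0.125%) and lower for 5 (0.0784%), 0.204% in all, and compound 4 was higher for 17 (0.267%) and lower for 10 (0.157%), 0.423% in all. QDR2 was higher than with compound 5 by 2.05 with compound 3 (95% interval 1.47 to 2.64, adjusted p = 2.57e-05) and by 2.06 with compound 4 (1.60 to 2.53, adjusted p = 7.36e-08). The 3 compound 5 arrays were at 0.085, -0.44 and 0.001 for QDR2, below all arrays of compounds 3 and 4. The mitochondrial dicarboxylate carrier DIC1 (YLR348C) was higher than with compound 5 by 1.33 and 1.04, and LCL2 differed by -1.17 and -0.89, past the threshold with both. REE1 was also higher with both, by 1.29 and 1.24. EXO84 (1.37), ALG13 (-1.15) and ZAP1 (-1.0042) differed from compound 5 with compound 3. HPF1 (2.36), CSS1 (2.27), HXT2 (-2.02) and VTC1 (-1.01) differed with compound 4. FIT2 was at 0.31, -0.21 and 0.74 with compound 5 and KAR2 at -1.08, 0.22 and -0.46. Their differences missed the threshold with compound 3 (adjusted p = 0.277 for FIT2 and 0.551 for KAR2) and compound 4 (adjusted p = 0.351 and 0.401).

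Compound 2 has a bromophenyl group without fluorine on a benzo-fused quinolinone. Compound 3 was higher than compound 2 for 2 probes (0.0314%) and lower for 1 (0.0157%), 0.047% in all, and compound 4 was higher for 5 (0.0784%) and lower for 4 (0.0627%), 0.141% in all. With compound 3, APL4 (YPR029C), a subunit of a clathrin adaptor, was higher by 0.92 (interval 0.51 to 1.33, adjusted p = 0.0291), and ALG13 differed by -0.98 (adjusted p = 0.0388, or 0.053 with the array number as a block), with the arrays of compound 2 at -0.49, -0.087 and 0.11. With compound 4, the pyruvate decarboxylase PDC1 (YLR044C) differed by 1.59 (interval 0.84 to 2.34, adjusted p = 0.046), with values of -0.39 and -0.65 against -2.47, -2.11 and -1.77 with compound 2. CRG1 (YHR209W), a methyltransferase gene, differed by 1.25 and RMD6 by 1.39, and the biotin transporter VHT1 (YGR065C) by -1.04. KAR2 was at -4.74, -3.44 and -3.06 with compound 2, below all arrays of compounds 3 and 4, and its difference of 1.74 from compound 4 (interval 0.65 to 2.84) missed the threshold (adjusted p = 0.276). FIT2 with compound 2 was at 4.33, 4.40 and 4.37, above them.

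The response to each compound was then set against its response in vector cells, to ask how the response differs where alpha-synuclein is made. With compound 3 it was higher in 2-copy cells for 43 probes (0.674%) and lower for 53 (0.831%), 1.51% in all, and with compound 4 higher for 40 (0.627%) and lower for 108 (1.69%), 2.32% in all. In the ER list 4 genes were lower with compound 3 and 6 with compound 4, and in the daughter separation list 3 and 6 were higher. In vector cells, ULI1 was at 0.083 ± 0.039 with compound 3 and 0.098 ± 0.094 with compound 4 (SD, n = 3), and its response in 2-copy minus vector cells was -3.37 ± 0.70 (SE, adjusted p = 0.00552) and -2.39 ± 0.55 (adjusted p = 0.0107). SUN4 was at 0.063 ± 0.11 and 0.0049 ± 0.13 in vector cells, with a difference of 1.60 (adjusted p = 0.0146) and 1.48 (adjusted p = 0.00198). Both genes lay near 0 in vector cells. By the other 2 sides of the loop, the ratio of 2-copy over vector cells with compound minus that without, the difference of SUN4 was 0.40 (adjusted p = 0.703) and 0.44 (adjusted p = 0.71), and that of ULI1 -2.48 (adjusted p = 0.0261) and -1.82 (adjusted p = 0.196). SCW11 (1.74 and 1.48), SUL1 (-2.0013 and -1.68), THI13 (-1.84 and -1.36), HNT1 (-1.76 and -1.32) and APQ12 (-1.63 and -1.51) differed between strains with both compounds, as did ATG17 (YLR423C), a scaffold protein of autophagy (-1.82 and -1.43). YPK2 (2.73), FIT3 (2.07) and PRM1 (1.86) differed with compound 3, and GIT1 (-1.64) and SHM2 (-1.55) with compound 4. By the other 2 sides YPK2 was at 0.022 (adjusted p = 0.993) with compound 3 and SHM2 at 0.33 (adjusted p = 0.885) with compound 4. With the array number as a block, the calls with compound 3 of HNT1 (-1.58, adjusted p = 0.0773), THI13 (-1.69, adjusted p = 0.0682), PRM1 (1.70, adjusted p = 0.0773) and FIT3 (1.87, adjusted p = 0.083) missed the threshold.

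Other genes moved in vector cells as well. QDR2 was above 0 there too, at 0.41 ± 0.051 with compound 3 and 0.41 ± 0.031 with compound 4 (SD, n = 3), and the strain difference was 1.53 (adjusted p = 0.00242) and 1.54 (adjusted p = 8.21e-05). CSS1 was at 0.93 ± 0.29 and 0.91 ± 0.18 in vector cells, and HPF1 at 0.65 ± 0.20 and 0.71 ± 0.13. Their strain difference missed the threshold with compound 3 (adjusted p = 0.178 and 0.144) and passed with compound 4, at 1.56 (adjusted p = 0.0371) and 1.63 (adjusted p = 0.0301). HXT2 was at -1.45 ± 0.27 and -1.59 ± 0.033 in vector cells, close to its values in 2-copy cells on the arrays numbered 1, and its strain difference of 0.043 and -0.30 did not pass (adjusted p = 0.991 and 0.85). FIT2 varied between vector arrays, from 0.22 to 1.61 with compound 3 and from 0.13 to 2.43 with compound 4, and its strain difference missed the threshold (adjusted p = 0.202 and 0.343).

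A direct view is the ratio of 2-copy over vector cells with the compound in both channels, of which 1 array each was kept, beside the same ratio without compound. ULI1 was at 5.43 ± 0.30 without compound (SD, n = 6), at 2.94 with compound 3 and at 3.61 with compound 4. KAR2 was at 3.57 ± 0.21, 1.87 and 2.45, and HSP26 at 5.51 ± 0.52, 2.24 and 2.81. For these genes the ratio with compound lay below the 6 arrays without it and above 0. THI13 was at 3.15 ± 0.23 without compound and at 0.72 and 1.12 with it, and ATG17 at 2.29 ± 0.42, 0.76 and 1.26. By this ratio 28 probes were higher and 105 lower with compound 3 than without, and 24 and 51 with compound 4. The differences for THI13 were -2.43 (adjusted p = 0.00153) and -2.03 (adjusted p = 0.013), for HSP26 -3.27 (adjusted p = 0.00691) and -2.69 (adjusted p = 0.0476), and for KAR2, which missed the threshold, -1.70 (adjusted p = 0.197) and -1.12 (adjusted p = 0.528). FIT2 had 0.52 ± 0.57 without compound and 4.52 and 4.75 with it, a difference of 4.01 (adjusted p = 0.00783) and 4.23 (adjusted p = 0.00813). SHM2, at 1.46 ± 0.50, 1.86 and 1.78, was not lower with compound. Among the lists, the ER median was 0.80 without compound, 0.21 with compound 3 and 0.36 with compound 4, and that of daughter cell separation -1.22, -0.66 and -0.55. Medians of cell wall integrity (1.39, 1.49 and 1.43), mitochondrial ribosome (-0.91, -0.91 and -0.81) and purine genes (0.56, 0.78 and 0.67) were closer to those without compound.

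**Figure D5:**
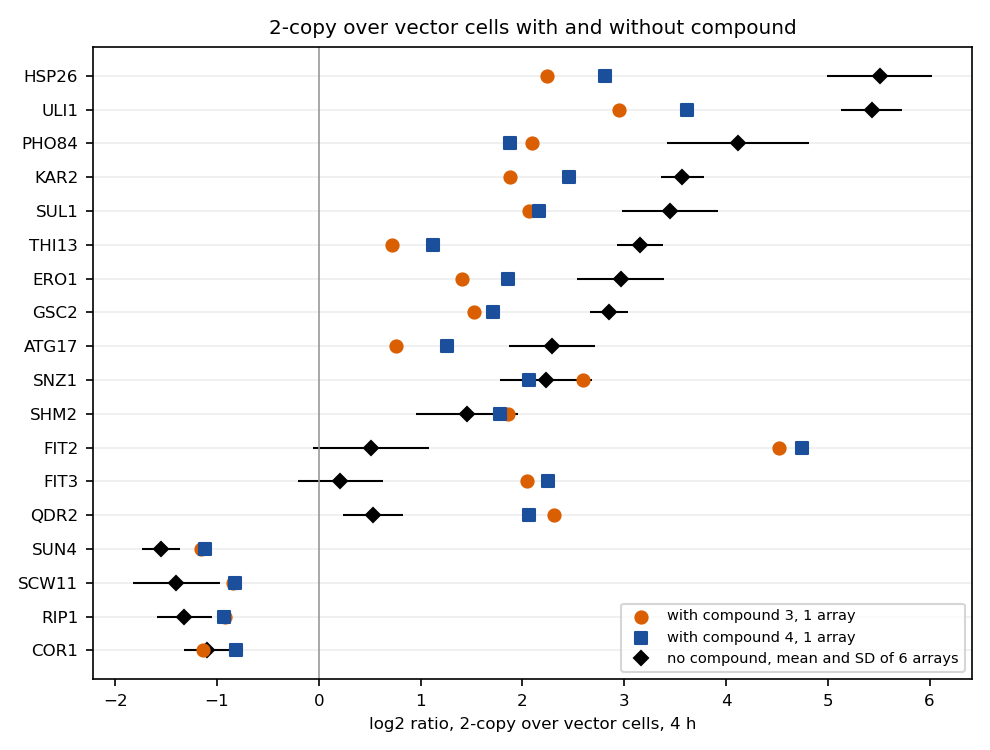
Log2 ratio of 2-copy over vector cells at 4 h for 18 genes without compound (diamonds, mean with SD of 6 arrays) and with compound 3 or compound 4 in both channels (1 array each). HSP26, ULI1, KAR2 and THI13 are closer to 0 with either compound, FIT2, FIT3 and QDR2 are farther above 0, and SNZ1 and SHM2 lie within the SD of the arrays without compound.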

How the data were processed

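Each sample was a 2-colour oligonucleotide array. The authors deposited a table of log2 ratios of Cy5 over Cy3, and limma is named in the submitters' processing notes. Its version, any background correction and the way of normalising are not given in these sources. That the values are log2 and point from Cy5 to Cy3 was read from limma's usual output, the order of the titles and the values, whose medians per array ran from -0.0306 to 0.0214. The values were used as deposited. Of 6377 probes, 5644 matched a RefSeq R64 locus tag as written, 196 after a hyphen was added and 537 not at all; 5227 had a symbol.

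One mean per group was fitted with limma 3.58.1 in R 4.3.3 over 83 of 93 arrays, with 10 left out for probe values out of step, and 57.6 degrees of freedom. Tests were two-sided, with Benjamini-Hochberg adjusted p under 0.05, over the 6377 probes or over the 5 compound pairs together. The fit was tested on simulated data. Genes were named by size of change among calls with the same sign on both compound 4 arrays, or with the same sign by the loop for compound 3, by up to 4 leading genes per list, by the largest differences between arrays that did not overlap, and from a fixed set. The genes and lists were chosen with earlier results of these data known. A p-value rests on the spread within all groups of the fit together, so that little of it comes from the 2 compound 4 arrays. For RMD6, at 2.09 and 0.66 on those arrays, the SE was 0.164. The number of arrays limits the precision. Sequences were not used here. Alternatives were another scaling, array weights, fewer or more arrays, the array number as a block, each array left out, a dye term and the loop.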

Additional observations from a re-analysis of the deposited data

Results flagged for a closer look

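Differences between the response in 2-copy and in vector cells made up most of the results here, each past an adjusted p of 0.05 in limma for the difference itself (log2, 2-copy minus vector cells). With both compounds, compound 3 first, they were QDR2 (1.53 and 1.54), REE1 (1.27 and 1.31), SUN4 (1.60 and 1.48), SCW11 (1.74 and 1.48), EGT2 (1.54 and 1.31) and DIC1 (1.58 and 1.44) on the higher side. On the lower side they were ULI1 (-3.37 and -2.39), LHS1 (-1.58 and -1.20), THI5 (-1.70 and -1.41), THI13 (-1.84 and -1.36), SUL1 (-2.0013 and -1.68), HNT1 (-1.76 and -1.32), LCL2 (-1.24 and -0.98), APQ12 (-1.63 and -1.51), ATG17 (-1.82 and -1.43), ZAP1 (-1.25 and -0.82) and RET3 (-0.87 and -0.68).

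With compound 3, further differences were higher for YPK2 (2.73), FIT3 (2.07), PRM1 (1.86), YOS1 (1.35) and APL4 (0.77), and lower for GSC2 (-1.51), HEM15 (-1.60) and ALG13 (-1.12). With compound 4 they were higher for CSS1 (1.56), HPF1 (1.63), DSE4 (1.35), PHO3 (1.14), RMD6 (1.06), COX4 (0.84), COR1 (0.83) and RIP1 (0.72). They were lower for GIT1 (-1.64), SHM2 (-1.55), THI11 (-1.40), ADE13 (-1.07), FUS1 (-0.86), SSE1 (-0.81) and SLY1 (-0.58). By the other 2 sides of the loop, 24 of the 25 differences named with compound 3 and 29 of the 32 with compound 4 had the same sign, 9 and 9 also passed the threshold, and 12 and 18 were smaller by over 1.5 times. With compound 3 YPK2 was then at 0.022 (adjusted p = 0.993) and YOS1 at -0.039, not called, and DIC1 was at 0.31 (adjusted p = 0.716) and 0.074 (adjusted p = 0.956) with compounds 3 and 4. Some of these genes were named with compound 3 by a rule that asked for the same sign by the 3 sides of the loop. Those 3 sides share arrays with the 2 sides used here. The sign counts are therefore in part fixed and are no check, and the share over all probes is not given. Whether compounds 3 and 4 differ in these strain differences was not tested. For YPK2 and YOS1, array 1 of compound 6 was at 2.39 and 1.32 in 2-copy cells.

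In the 6 arrays of 2-copy over vector cells without compound, 1 array lay far from the other 5 (Dixon's test) for 4 of the named genes. It was array 4 for FIT3 (1.04), HPF1 (0.57) and CWP1 (1.25), and array 6 for HXT2 (-0.13). Chance sets apart about 1 in 20 such groups. At least 80 genes are named here, so that 4 is no more than chance would set apart.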

How the results depend on the processing

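Counts of calls depended on the spread assumed. Scaling every array to 1 spread gave 141 calls with compound 3, 2 for compound 3 minus 4, 3 for 3 minus 5, 3 for 4 minus 5, 1 for 3 minus 2 and 1 for 4 minus 2. Array weights gave 1501 with compound 3, 9, 125, 53 and 30 for 3 minus 4, 3 minus 5, 4 minus 5 and 3 minus 2, and 1130 and 562 for 2-copy minus vector cells with compounds 3 and 4. A fit to the compound groups alone gave 266 with compound 3, 1, 5, 6, 1 and 1 for the 5 pairs in the order above, and 49 and 73 for 2-copy minus vector cells. With the left-out arrays included, 3 minus 4 had 1 call, 3 minus 5 had 47, 3 minus 2 had 164, 4 minus 2 had 26 and compound 4 in 2-copy minus vector cells 23. The other sides of the loop gave 97 with compound 3, 72 with compound 4 and 75 for compound 4 in 2-copy minus vector cells. The arrays numbered 1 alone gave 8 for 3 minus 4. Subtraction of compound 6, chosen after seeing the data, gave 5 and 64, and 74 with compound 4 when the sign of compound 6 array 2 was turned. The cause was not tested, other than that fewer arrays enter some of these fits.

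Leaving out 1 array at a time gave 195 to 413 calls with compound 4, 5 to 8 for 3 minus 4, 8 to 39 for 3 minus 5, 9 to 48 for 4 minus 5, 1 to 5 for 3 minus 2, 5 to 18 for 4 minus 2, 39 to 77 for compound 3 in 2-copy minus vector cells and 26 to 78 for compound 4. A group left with 1 array was assumed to vary like the others. By the loop, CCC2 (-0.0185), SHM2 (0.051), EMG1 (-0.50), ADE13 (0.40) and YPK2 (-0.23) changed sign with compound 3, and DIC1 (-0.19), ADE13 (0.29) and YPK2 (-0.24) with compound 4, as did SHM2 in 2-copy minus vector cells with compound 4 (0.33). YOS1 changed sign with compound 4 when compound 6 was subtracted with the sign of its array 2 turned (-0.0279). Of the other values of single genes, 1585 kept their direction and side of the threshold, 606 lost the threshold and 39 passed it.

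With the array number as a replicate block, the counts were 355 and 851 with compounds 3 and 4, 4 for 3 minus 4, 16 and 40 against compound 5, 3 and 12 against compound 2, and 79 and 171 for 2-copy minus vector cells, so that no count moved by over 1.5 times. The block changed 8 calls of genes named in the text, which are given beside them. The residuals of same-numbered arrays of compounds 4 and 5 correlated at 0.325 and 0.0587, and those of compounds 4 and 2 at 0.464 and 0.219. Residuals of array 2 of compound 4 correlated with array 3 of compounds 5 and 2 at 0.399 and 0.341. With 2 arrays the residuals of compound 4 mirror each other, so that these values say nothing particular to its array 2. The ratios of that array across probes correlated with array 3 of compounds 5 and 2 at 0.572 and 0.764. With array 2 of these compounds they correlated at 0.012 and 0.670. For array 2 of compound 4 the number is thus not shown to be the right match, on which the block and the subtraction by number rest. Residuals of same-numbered arrays of compounds 1, 2 and 5, with 3 pairs each, correlated at 0.538 to 0.741. Those of differently numbered arrays of these compounds correlated at -0.0011 or below. Residuals cancel out within a group, which pulls these values down, so that they are no separate evidence. The number thus marks something the arrays share among compounds 1, 2 and 5, which no label names. The block fits 1 shift per number over all groups, vector cells among them. It therefore does not fully remove a pattern held by the 2-copy compound arrays alone. The mitochondrially encoded OLI1, high on the arrays numbered 1, was at 1.61 and 1.32 with the block for compounds 3 and 4. Without the block it was at 2.18 and 1.52. No paired analysis was possible for compound 3 minus 4 alone because they share only the number 1.

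Compound 3 rests on 1 array, and every p for it on the spread of other groups. Dose, solvent and probe brightness were not used here, so that a dim probe cannot be told from a bright one. The arrays numbered 1 of compounds 1 to 6 share some large ratios, and the part of this in the calls with compounds 3 and 4 was not tested. There is no dye swap.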

Other observations

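Genes of redox defence fell with compound 4, 6 of 32 with 1 rise, while limma called 0 with compound 3, where 9 were lower and 1 higher at an unadjusted p under 0.05, and no member passed the test of the difference. The list's medians were -0.30, -0.27 and -0.11 on the 3 arrays and -0.078 on compound 6 array 1. Of 19 genes of mitochondrial chaperones and import, 1 rose with compound 3 and 3 with compound 4. Of 10 histone genes, 2 rose with compound 4, with a list median of 0.16, 0.21 and 0.50. Of 64 ribosome biogenesis genes, 1 rose with each compound. Of 27 sulfate and methionine genes, 1 fell with compound 3, and 2 fell and 1 rose with compound 4. Over all probes, 3.04% rose and 3.73% fell with compound 3, and 4.89% rose and 8.25% fell with compound 4.

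Mitochondrially encoded probes, chosen after their values were seen, numbered 28, with medians of -0.0683, -0.0104 and 0.15 on the 3 arrays. Single probes stood far from this. OLI1, a mitochondrially encoded subunit of the ATP synthase, was at 2.18 with compound 3, 3.60 and -0.56 with compound 4 and 3.74 on compound 6 array 1. AI5_ALPHA, encoded in an intron of COX1, was at 2.38, 2.95, 0.25 and 2.65. On array 1 of compounds 1, 2 and 5 OLI1 was at 3.29, 3.85 and 3.66, and AI5_ALPHA at 4.34, 4.45 and 3.78. Both were thus high on array 1 of all 6 compounds and not on array 2 of compound 4.

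The 3 arrays left out were also read for the same genes, as values alone. Of the 82 probes past 1 in size on the 3 arrays used, the mean of the left-out arrays was past 0.5 with the same sign for 21, against the sign for 0 and within 0.5 for 61. Of 55 probes past 1 on all 3 left-out arrays, 43 were within 0.5 of 0 on average over the arrays used. Phosphate genes were low on them as well: SPL2 was at -1.93 and -2.40 on compound 3 arrays 2 and 3 and -2.32 on compound 4 array 3, PHO84 at -2.17, -2.29 and -2.19, and PHO89 at -1.93, -2.73 and -2.53. HXT2 was at -1.87, -2.19 and -1.99. KAR2 (0.08, -0.47 and -0.44), ULI1 (-0.044, 0.14 and 0.12) and FIT2 (0.11, -0.014 and -0.13) were near 0 on the left-out arrays.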
